A study of Homo sapiens with 10 samples.

Results

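The mitochondrially encoded genes are those carried by the small circular genome inside mitochondria, here taken as every gene of the deposited count table whose symbol starts with MT-. They were 15 of 25538 genes in the table, namely 13 protein genes and the ribosomal RNA genes MT-RNR1 and MT-RNR2. Mitochondrial transfer RNA genes were not analysed here. The filter on low counts removed 0 of the 15, so 15 members were tested among 19843 genes, and the lowest count of any member in any library was 807.

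The libraries came from A549, a human lung adenocarcinoma line of epithelial origin. The P300 Dex group (n = 2) held cells transfected with a vector for an Ep300-GFP fusion and then given 100 nM dexamethasone, a synthetic glucocorticoid, for 1 h. The P300 EtOH group (n = 2) held cells with the same fusion given the ethanol vehicle. The GFP Dex group (n = 3) held cells transfected with a GFP vector and given 100 nM dexamethasone for 1 h, and the GFP EtOH group (n = 3) held cells with the GFP vector given ethanol. In every group 1 ug of vector was used, the cells then spent 48 h in charcoal-stripped serum, and cells fixed in ethanol were sorted for GFP, so each library is a pool of transiently transfected cells and not a clone. EP300 is a nuclear acetyltransferase and a coactivator of hormone receptors. The design asks what extra EP300 does to transcript levels, with and without the hormone. The labels do not say that replicates came from separate cultures, so the p-values below measure only the spread between these libraries.

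Mitochondrial DNA is transcribed by its own polymerase, POLRMT, with the factors TFAM and TFB2M, into long RNAs that run over many genes of a strand. Transfer RNAs between the genes are cut out, and this frees the ribosomal RNAs and the mRNAs, whose levels then depend on processing and decay as well as on transcription. The heavy-strand transcript carries both ribosomal RNAs and all protein genes except MT-ND6, which lies on the opposite transcript. The protein genes encode subunits of respiratory complexes I, III and IV and of ATP synthase, while complex II is encoded in the nucleus alone.

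At 2 places a pair of protein genes shares bases and is known to stay joined in a bicistronic mRNA, which matters here because the members of each pair showed different values. The stretches are shown because reads over them belong to both genes; they come from GENCODE 29 transcripts on GRCh38, plus strand. MT-ATP8 (chrM:8366-8572) and MT-ATP6 (chrM:8527-9207) share the 46 bases at chrM:8527-8572, in which the capitals mark the start codon of MT-ATP6. MT-ATP6 also ends on the base at which MT-CO3 (chrM:9207-9990) starts, which is not shown. MT-ND4L (chrM:10470-10766) and MT-ND4 (chrM:10760-12137) share 7 bases, in capitals in the last 30 bases of MT-ND4L (chrM:10737-10766) and in the first 30 bases of MT-ND4 (chrM:10760-10789). How reads over both genes of a pair were counted is not given in the sources used here.
MT-ATP8 and MT-ATP6: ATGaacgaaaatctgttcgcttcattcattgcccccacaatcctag
MT-ND4L: gtacataacctaaacctactccaATGCTAA
MT-ND4: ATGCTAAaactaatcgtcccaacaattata

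Library totals ran from 2278717 counts in P300 EtOH replicate 2, where 11861 genes of the table had a count of 0, to 13122367 counts. EP300 itself, the transfected gene, held 28.8% and 2.42% of counts in P300 Dex, 28.6% and 13.4% in P300 EtOH, and 0.0271% to 0.0386% in the 6 GFP libraries, so EP300 was removed before library sizes were set. Epithelial keratins KRT8 and KRT18 were abundant, KRT8 with 4148 CPM or more in all 10 libraries, while the epithelial adhesion gene EPCAM was between 0.977 and 19.1 CPM (counts per 1000000, on library sizes scaled by the trimmed mean of M values) and the leukocyte gene PTPRC was at most 0.874 CPM. The 7 epithelial and A549 markers summed to 6686 and 23077 CPM in P300 Dex and to 11296 to 19000 CPM in GFP Dex. They summed to 7118 and 10870 CPM in P300 EtOH, below the 11135 to 17843 CPM in GFP EtOH. In P300 EtOH over GFP EtOH 5 of them had negative log2 fold changes, such as KRT8 at -0.67 and KRT18 at -0.47. Among the 7 markers 1 passed in this comparison, EPCAM, which rose (2.87 ± 0.63, SE, edgeR adjusted p = 0.0440). The 5 fibroblast markers summed to 56.8 to 62.8 CPM in P300 Dex, 68.4 to 82.7 CPM in P300 EtOH, 14.0 to 31.5 CPM in GFP Dex and 17.4 to 32.3 CPM in GFP EtOH. The 2 measured endothelial markers summed to 3.71 to 12.9, 5.74 to 23.2, 1.53 to 1.92 and 0.896 to 2.36 CPM in the same groups. The 4 measured leukocyte markers summed to 2.97 to 6.46, 1.36 to 6.87, 1.32 to 2.08 and 1.14 to 2.82 CPM. Among them CD14 was at 5.52 and 2.35 CPM in P300 Dex, 5.99 and 1.36 CPM in P300 EtOH, and at most 2.36 CPM in the GFP libraries. Nuclear 28S ribosomal RNA (RNA28S5) took 4.63% and 3.65% of counts in the GFP Dex and GFP EtOH libraries of replicate number 2, and 0.209% to 1.21% in the other libraries.

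The share of counts held by the 15 genes was highest in the P300 EtOH libraries. It was 3.62% and 3.72% in P300 Dex, 4.85% and 5.03% in P300 EtOH, 3.01%, 3.83% and 2.84% in GFP Dex, and 3.13%, 3.92% and 3.05% in GFP EtOH, all without EP300 in the total. Both P300 EtOH libraries lay above the 8 others, and the P300 Dex libraries lay within the range of the GFP libraries. Counting error was small beside this spread: the widest 95% Clopper-Pearson interval, in the shallowest library, ran from 5.00% to 5.06%. In such bulk libraries, more mitochondrial RNA per cell, less nuclear RNA per cell and a different mix of cells cannot be told apart.

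The share averaged 4.94% ± 0.132 (SD, n = 2) in P300 EtOH and 3.36% ± 0.480 (SD, n = 3) in GFP EtOH, a ratio of 1.47; it was higher by 1.72 and 1.12 percentage points within replicate numbers 1 and 2. The groups did not overlap, and a two-sided exact permutation test of this difference of 1.57 percentage points gave p = 0.2, the smallest p that 2 against 3 libraries allow. The share averaged 3.67% ± 0.0649 (SD, n = 2) in P300 Dex, a ratio of 0.743 to P300 EtOH, with an exact permutation p of 0.333, the smallest possible with 2 libraries against 2; it was lower in both numbered pairs. P300 Dex exceeded GFP Dex (3.23% ± 0.527, SD, n = 3) by 0.44 percentage points, which was less than the spread in GFP Dex (exact permutation p = 0.6), with differences of 0.612 and -0.112 within numbers 1 and 2. The difference between GFP Dex and GFP EtOH was -0.14 percentage points (exact permutation p = 0.5, smallest possible 0.1). Within numbers 1, 2 and 3 it was -0.115, -0.0902 and -0.209, so the share was lower with hormone in 3 of 3 pairs. For the protein genes alone the differences were 0.0124, -0.194 and -0.196, so number 1 went the other way. The unpaired tests given here do not use the numbers. Over the family of 16 such exact permutation tests, 4 measures in 4 comparisons, the smallest adjusted p was 0.711.

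With EP300 left in the total, the share was 2.58% and 3.63% in P300 Dex, 3.46% and 4.36% in P300 EtOH, 3.01%, 3.83% and 2.84% in GFP Dex, and 3.12%, 3.92% and 3.05% in GFP EtOH. On that base P300 EtOH and GFP EtOH overlapped, and P300 Dex averaged below GFP Dex.

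**Figure D1:**
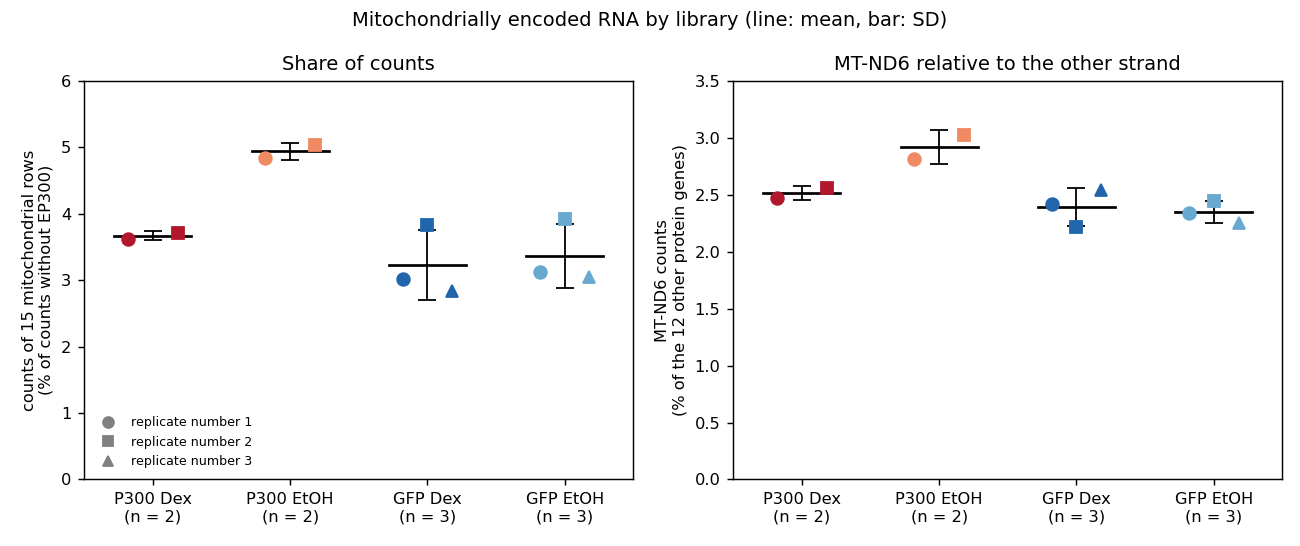
The left plot gives the counts of the 15 mitochondrially encoded genes as % of all counts without EP300, and the right plot gives MT-ND6 counts as % of the counts of the 12 other protein genes; each point is a library, shaped by replicate number, with the group mean (line) and SD (bar). The P300 EtOH libraries, at 4.85% and 5.03% on the left and at 2.81% and 3.03% on the right, lie above the 8 other libraries in both.

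Extra EP300 without hormone went with higher values of most members, and 0 of 15 passed the test. In P300 EtOH over GFP EtOH, 13 of the 15 genes had a positive log2 fold change and 2 a negative one, MT-ND4L and MT-CO2. Their median was 0.49, against -0.18 for all 19843 genes tested. By edgeR's quasi-likelihood test with Benjamini-Hochberg adjustment over all genes, 467 genes passed at 0.05, a background of 2.35%, and 0 of the 15 did; 4 of the 15 had an unadjusted p under 0.05, against 25.9% of all genes. In 8 of the 15 both P300 EtOH libraries lay above all GFP EtOH libraries, against a background of 11.6% of all genes, and in 0 of the 15 below them, against 29% of all genes. Without P300 EtOH replicate 1 the median of all genes was -0.93, beside 0.55 for the members. Leaving out the shallow P300 EtOH replicate 2 gave 12 higher members, and over all alternatives tried the number ran from 12 to 15. The epithelial, fibroblast and endothelial marker sums and the depth differed in the same libraries, and their part in these values was not tested.

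MT-ATP6, a membrane subunit of the proton channel of ATP synthase, came closest to the threshold. Its level was 2033 and 1621 CPM in P300 EtOH and 874, 1030 and 879 CPM in GFP EtOH. Both P300 EtOH libraries stood well above the GFP EtOH libraries, which were close to each other. The log2 fold change was 0.98 ± 0.23 (SE), with an edgeR adjusted p of 0.0519. Between libraries of the same replicate number it was 1.22 and 0.65. Its adjusted p passed 0.05 in 10 of 24 alternatives, among them the fit with the replicate number as a block within the libraries compared (log2 fold change 1.04, edgeR adjusted p = 0.0111), and ranged from 5.09e-05 to 0.364 over them. With the block in the fit of all 10 libraries the edgeR adjusted p was 0.0516, and with the libraries compared alone it was 0.114. The block within the libraries compared called 288 of all genes in this comparison, and DESeq2 called 2500. Over all alternatives the log2 fold change of MT-ATP6 itself stayed between 0.88 and 1.14.

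MT-ATP8, the other ATP synthase subunit, whose end overlaps the start of MT-ATP6, varied more within groups. It was at 838 and 504 CPM in P300 EtOH and at 552, 434 and 230 CPM in GFP EtOH, so the groups overlapped. Its log2 fold change was 0.73 ± 0.42 (SE), with an edgeR adjusted p of 0.293.

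Among the 7 complex I subunits, MT-ND3, MT-ND1 and MT-ND6 had the largest differences. MT-ND3, a small membrane subunit, was at 347 and 367 CPM in P300 EtOH and at 181, 240 and 131 CPM in GFP EtOH, a log2 fold change of 0.96 ± 0.32 (SE; edgeR adjusted p = 0.110). MT-ND1, a membrane-arm subunit near the ubiquinone site, was at 3402 and 2185 CPM in P300 EtOH and at 1723, 2011 and 1575 CPM in GFP EtOH, a log2 fold change of 0.66 ± 0.26 (SE; edgeR adjusted p = 0.142). In both genes the P300 EtOH libraries lay above the GFP EtOH libraries, for MT-ND1 by a narrow gap. MT-ND6, the subunit encoded on the opposite strand, was at 1060 and 1106 CPM in P300 EtOH and at 614, 872 and 595 CPM in GFP EtOH, a log2 fold change of 0.64 ± 0.25 (SE; edgeR adjusted p = 0.138). MT-ND4, a proton-pumping subunit, was at 7836 and 8218 CPM in P300 EtOH and at 5137, 7213 and 5457 CPM in GFP EtOH, with a log2 fold change of 0.44. All P300 EtOH values of these last 2 genes were again above those of GFP EtOH. DESeq2 passed MT-ND6 (adjusted p = 0.00977), MT-ND3 (adjusted p = 0.0161) and MT-ND1 (adjusted p = 0.0265), which no other alternative did, as well as MT-ATP6; these 4 of 15 stand against a background of 13.4% of genes that DESeq2 called in this comparison.

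The other complex I subunits overlapped between the groups. MT-ND2 was at 2380 and 1475 CPM in P300 EtOH and at 1235, 1715 and 1176 CPM in GFP EtOH, and only P300 EtOH replicate 1 was above the GFP EtOH range. MT-ND5 had a log2 fold change of 0.38. MT-ND4L was at 552 and 668 CPM in P300 EtOH and at 703, 812 and 489 CPM in GFP EtOH, with a log2 fold change of -0.13 ± 0.31 (SE; edgeR adjusted p = 0.818).

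The complex III gene MT-CYB, which encodes cytochrome b, had a log2 fold change of 0.26 ± 0.27 (SE). The complex IV genes encode the core of cytochrome c oxidase. MT-CO3 was at 1893 and 2059 CPM in P300 EtOH and at 1196, 1800 and 1254 CPM in GFP EtOH, without overlap and with a log2 fold change of 0.48. MT-CO1 and MT-CO2, the subunits that carry the catalytic metal centres, had log2 fold changes of 0.08 ± 0.25 and -0.02 ± 0.24 (SE). Their edgeR adjusted p-values were 0.867 and 0.963, and their 95% intervals, from -0.41 to 0.57 for MT-CO1 and from -0.49 to 0.45 for MT-CO2, do not show that they stayed the same.

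The ribosomal RNAs of the mitochondrial ribosome were also above all GFP EtOH libraries. MT-RNR1, the small-subunit rRNA, was at 1396 and 1800 CPM in P300 EtOH and at 942, 1221 and 698 CPM in GFP EtOH. MT-RNR2, the large-subunit rRNA, was at 5541 and 5667 CPM in P300 EtOH and at 3279, 5212 and 2194 CPM in GFP EtOH. For both genes GFP EtOH replicate 2, the library of this group with high 28S rRNA, was nearest to the P300 EtOH values. The log2 fold changes were 0.74 ± 0.36 for MT-RNR1 and 0.65 ± 0.45 for MT-RNR2 (SE), with edgeR adjusted p-values of 0.214 and 0.380.

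**Figure D2:**
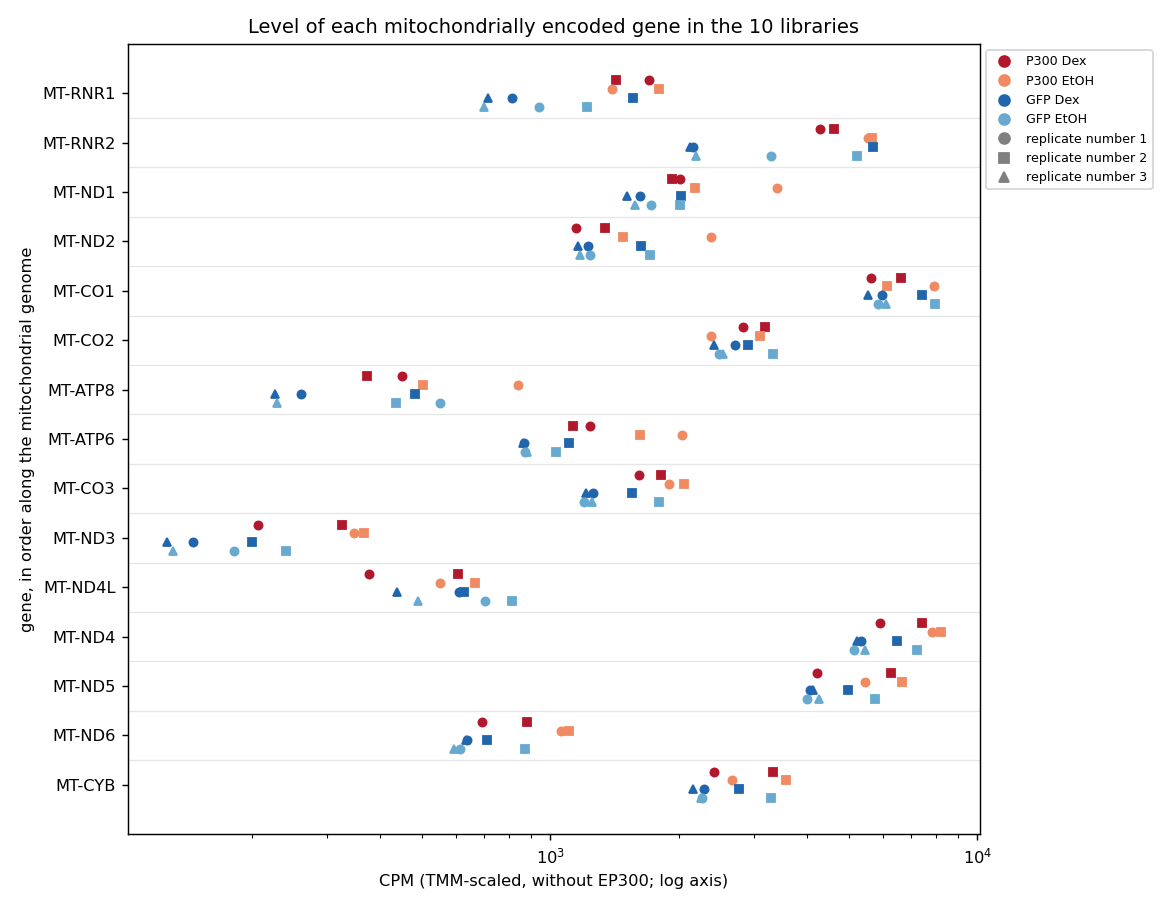
Each row is a mitochondrially encoded gene in its order along the genome, and each point a library, with CPM on a log axis, colour for the group and shape for the replicate number. MT-ATP6 in P300 EtOH, at 2033 and 1621 CPM, stands clear of the other groups, while MT-CO1 and MT-CO2 overlap between all groups.

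With hormone present 0 of 15 members passed for the construct, and whether its effect differed from that without hormone is the interaction tested below. In P300 Dex over GFP Dex, 12 of the 15 genes had a positive log2 fold change and 3 a negative one (MT-CO1, MT-ND2 and MT-ND4L), with a median of 0.26 against 0.09 for all genes tested. By edgeR's adjusted p 0 of the 15 passed, against a background of 0.00504% (1 gene), and 1 of the 15 had an unadjusted p under 0.05, against 12.6% of all genes; DESeq2 likewise passed 0 of the 15, against 3.89%. In 3 of the 15, MT-ATP6, MT-CO3 and MT-ND3, the P300 Dex libraries lay above all GFP Dex libraries, against a background of 16.8% of all genes, and in 0 below, against 15.8%. MT-ND3 was at 207 and 326 CPM in P300 Dex and at 146, 200 and 126 CPM in GFP Dex, a log2 fold change of 0.76 ± 0.32 (SE; edgeR adjusted p = 0.365). MT-ATP6 was at 1235 and 1130 CPM in P300 Dex and at 865, 1104 and 865 CPM in GFP Dex, a log2 fold change of 0.32 ± 0.23 (SE). The gap for MT-ATP6 was small next to GFP Dex replicate 2.

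Dexamethasone in P300 cells went with lower values of most members, and none passed. In P300 Dex over P300 EtOH, 14 of the 15 genes had a negative log2 fold change, with a median of -0.31 against 0.18 for all genes tested, and MT-CO2 was the exception at 0.13. EdgeR's adjusted p passed 0 of 15 against a background of 0% (0 of 19843 genes), 1 of the 15 had an unadjusted p under 0.05 (13.3% of all genes), and DESeq2 passed 0 of the 15 (2.89% of all genes). In 9 of the 15 both P300 Dex libraries lay below both P300 EtOH libraries, against a background of 6.6% of all genes, and in 0 above, against 18.5%. Compared within replicate number 1 and within number 2, 13 of 15 genes were lower in each. These comparisons share the P300 EtOH libraries with those of P300 against GFP without hormone, so high values in P300 EtOH enter both. Within number 1 EP300 held 28.8% of counts in P300 Dex and 28.6% in P300 EtOH. Within number 2 it held 2.42% and 13.4%, and the part of this difference in the members' values was not tested. Without P300 Dex replicate 1 the members' median was -0.11, and without P300 Dex replicate 2 it was -0.47.

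MT-ATP6 had the smallest p of the members, with a log2 fold change of -0.63 ± 0.26 (SE; edgeR adjusted p = 0.320). Its level was 1235 and 1130 CPM in P300 Dex and 2033 and 1621 CPM in P300 EtOH, and the log2 differences were -0.72 and -0.52 within replicate numbers 1 and 2. MT-ATP8 was at 448 and 373 CPM in P300 Dex and 838 and 504 CPM in P300 EtOH, a log2 fold change of -0.71 ± 0.46 (SE). MT-ND2 was at 1151 and 1341 CPM in P300 Dex and 2380 and 1475 CPM in P300 EtOH, a log2 fold change of -0.63 ± 0.32 (SE). For MT-ATP8 and MT-ND2 most of the distance came from P300 EtOH replicate 1, the higher of its group. MT-RNR1 was close to level between the groups, with 1706 and 1422 CPM in P300 Dex and 1396 and 1800 CPM in P300 EtOH. Among the 19 measured nuclear RNAs listed as lacking a poly(A) tail, 16 had positive log2 fold changes in this comparison, with a median of 0.85; they summed to 12430 and 29633 CPM in P300 Dex, against 6814 and 13583 CPM in P300 EtOH, and their part in the members' values was not tested.

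In GFP cells the members' values with hormone overlapped those with vehicle. In GFP Dex over GFP EtOH the log2 fold changes ran from -0.33 for MT-ATP8 to 0.11 for MT-RNR1, with a median of -0.07 against -0.03 for all genes. The members' median changed sign with the libraries used, at -0.20 when GFP Dex replicate 2 was left out and at 0.09 when GFP EtOH replicate 2 was. EdgeR's adjusted p passed 0 of 15 against a background of 0% (0 of 19843 genes), 0 of the 15 had an unadjusted p under 0.05 (0.569% of all genes), and DESeq2 passed 0 of the 15 (0.0252% of all genes). In 0 of the 15 did the groups separate, against backgrounds of 3.54% of all genes higher and 5.52% lower. The 95% interval for MT-ATP6 ran from -0.38 to 0.43 and that for MT-ATP8 from -1.06 to 0.41, so changes of moderate size were not detectable here.

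The hormone difference in P300 cells minus that in GFP cells was negative for 13 of the 15 genes, with a median of -0.20 against 0.24 for all genes. Leaving out P300 EtOH replicate 1 gave a median of -0.38. Leaving out P300 Dex replicate 1 gave -0.02, and omitting GFP Dex replicate 2 gave 0.0072. Over the alternatives 0 to 8 members were positive. None of the 15 passed edgeR's test of this interaction, against a background of 0% (0 of 19843 genes), 0 of the 15 had an unadjusted p under 0.05 (9.04% of all genes), and DESeq2 passed 0 of the 15 (0.714% of all genes). MT-ATP6 had the smallest p, with an interaction of -0.65 ± 0.33 (SE; edgeR adjusted p = 0.616). The hormone response of the members was thus not shown to differ between the constructs.

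**Figure D3:**
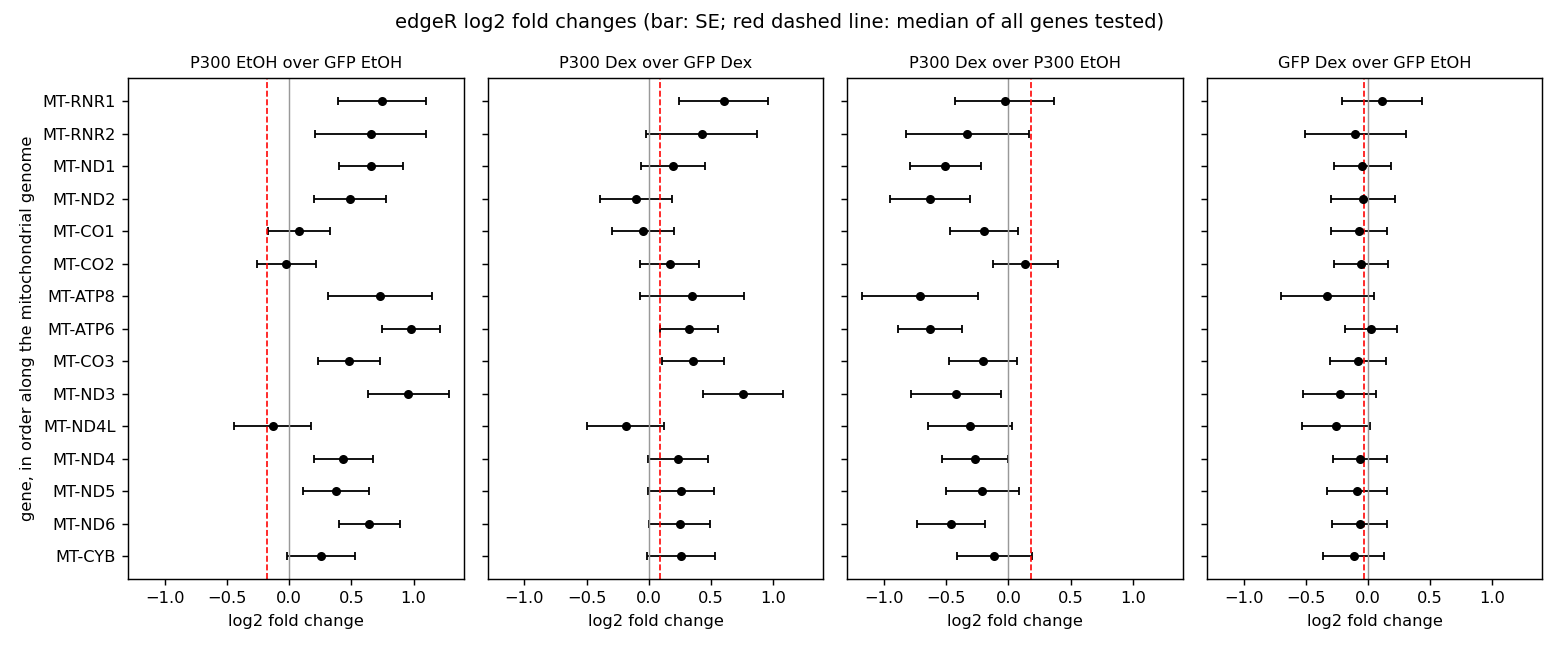
Each panel gives the edgeR log2 fold change (point) and SE (bar) of the 15 genes, in genome order, for 1 comparison, with the median of all genes tested as a red dashed line. In P300 EtOH over GFP EtOH 13 of 15 points lie above 0, and in P300 Dex over P300 EtOH 14 of 15 lie below 0, while 0 of the 15 genes passed the adjusted threshold in any panel.

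Levels per length, as counted, differed widely among genes that share a primary transcript. The part in them of reads over overlapping genes and of nuclear copies of mitochondrial sequence was not tested. As CPM per kilobase of gene, MT-ND4, MT-CO1 and MT-CO2 were the 3 highest in every group. In P300 EtOH MT-ND4 reached 5825 ± 196 CPM per kilobase, MT-CO1 4554 ± 802 and MT-CO2 3998 ± 742 (SD, n = 2), and in GFP EtOH they were at 4307 ± 811, 4310 ± 745 and 4061 ± 687 (SD, n = 3). In P300 Dex, GFP Dex and GFP EtOH the ranges of neighbours among these 3 overlapped, and in P300 EtOH the lowest MT-ND4 value lay above the highest of MT-CO1. Within each P300 Dex library MT-ND4 was also the higher, at 4291 against 3644 and at 5396 against 4301 CPM per kilobase. MT-ND5, MT-RNR2 and MT-CYB followed in both GFP groups, each overlapping the next.

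MT-ND3 was the lowest of the 15 in every group and did not overlap the gene above it in any of them. It averaged 769 ± 243 CPM per kilobase in P300 Dex, 1032 ± 39.9 in P300 EtOH (SD, n = 2 each), 455 ± 111 in GFP Dex and 532 ± 158 in GFP EtOH (SD, n = 3 each). MT-RNR1 was the next lowest in P300 EtOH, GFP Dex and GFP EtOH, and MT-ND2 in P300 Dex. Ribosomal RNA was thus not the bulk of the mitochondrial counts: MT-RNR1 and MT-RNR2 held 17.3% and 14.6% of the members' counts in P300 Dex, 15.2% and 16.5% in P300 EtOH, 9.90%, 18.1% and 9.95% in GFP Dex, and 13.6%, 15.002% and 9.69% in GFP EtOH. Within the GFP groups this share was highest in the replicate 2 libraries, which also held the most 28S rRNA. The protocols name a stranded total RNA kit and a poly(A) selection kit without assigning them to libraries, and rRNA levels depend on that step.

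**Figure D4:**
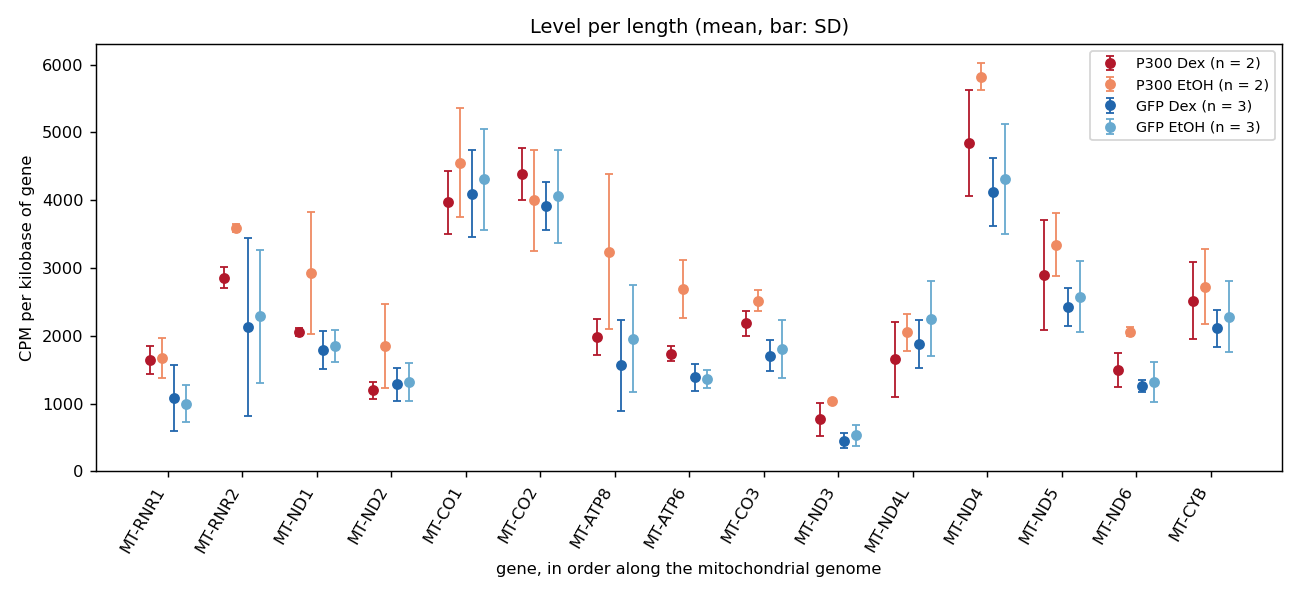
Points give the mean CPM per kilobase of each gene in each group and bars the SD, with genes in their order along the mitochondrial genome. MT-CO1, MT-CO2 and MT-ND4 are highest and MT-ND3 lowest in all 4 groups, with neighbouring genes far apart in level.

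The balance between the strands was compared through MT-ND6 as a share of the counts of the 12 other protein genes. This was 2.47% and 2.56% in P300 Dex, 2.81% and 3.03% in P300 EtOH, 2.42%, 2.21% and 2.54% in GFP Dex, and 2.34%, 2.45% and 2.26% in GFP EtOH. Both P300 EtOH libraries were above the 8 others. On the log2 scale P300 EtOH exceeded GFP EtOH by 0.31 (exact permutation p = 0.2, the smallest possible), and P300 Dex minus P300 EtOH was -0.21 (exact permutation p = 0.333, the smallest possible). Whether the counting used strand is not given in the sources used here, and without strand RNA of the opposite transcript cannot be told apart from MT-ND6. The log2 ratio of rRNA to heavy-strand mRNA differed by 0.40 between P300 EtOH and GFP EtOH, a difference close to the SD of 0.38 in GFP EtOH.

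The genes of the 2 joined pairs did not keep one ratio. MT-ND4L counts were 6.35% and 8.16% of MT-ND4 counts in P300 Dex, 7.04% and 8.12% in P300 EtOH, 11.4%, 9.69% and 8.38% in GFP Dex, and 13.7%, 11.3% and 8.95% in GFP EtOH. The 4 P300 libraries lay below the 6 GFP libraries, with a narrow gap between P300 Dex replicate 2 and GFP Dex replicate 3; this ratio was singled out after its values were seen and has no test. MT-ATP8 counts were 36.3% and 33.0% of MT-ATP6 counts in P300 Dex, 41.2% and 31.1% in P300 EtOH, 30.2%, 43.7% and 26.1% in GFP Dex, and 63.1%, 42.2% and 26.1% in GFP EtOH. Here the groups overlapped, and the GFP libraries alone spanned the whole range.

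Along the heavy strand, the counts of MT-ND1 and MT-ND2, the first protein genes, were set over those of MT-ND5 and MT-CYB, the last. The ratio was 0.477 and 0.340 in P300 Dex, 0.712 and 0.358 in P300 EtOH, 0.447, 0.472 and 0.425 in GFP Dex, and 0.473, 0.412 and 0.423 in GFP EtOH. P300 EtOH replicate 1 stood apart from the 9 other libraries and was also the highest in MT-ND1 and MT-ND2 CPM; without it the MT-ND1 log2 fold change in P300 EtOH over GFP EtOH was the lowest of all alternatives, 0.38.

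**Figure D5:**
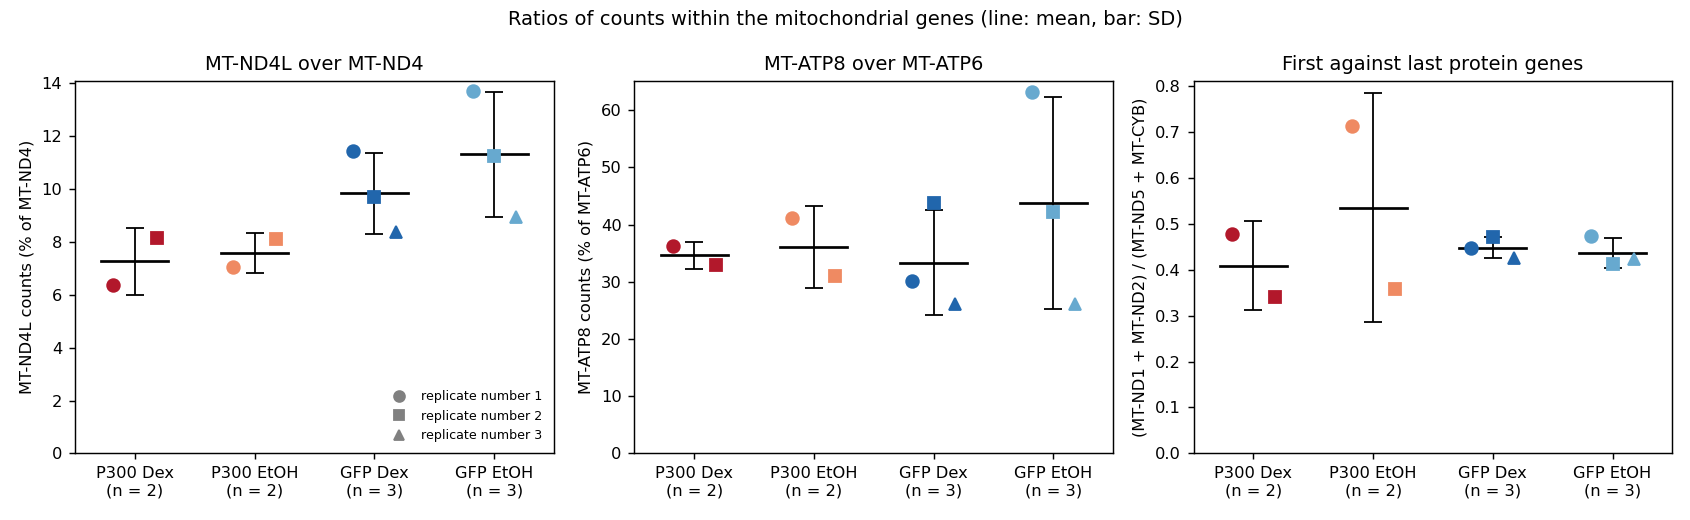
Points are libraries, shaped by replicate number, with group mean (line) and SD (bar), for MT-ND4L counts as % of MT-ND4, MT-ATP8 counts as % of MT-ATP6, and the ratio of MT-ND1 plus MT-ND2 to MT-ND5 plus MT-CYB counts. The P300 libraries, at 6.35% to 8.16%, lie below the GFP libraries, at 8.38% to 13.7%, in the left panel only.

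The nuclear genes of the same complexes gave other medians than the mitochondrial ones in P300 EtOH over GFP EtOH, where the median of all genes was -0.18. Of 37 nuclear subunits of complex I, 16 had positive and 21 negative log2 fold changes with a median of -0.11, and 1 fell, NDUFA8, an accessory subunit. NDUFA8 was at 2.75 and 0.909 CPM in P300 EtOH and at 15.8, 10.2 and 17.6 CPM in GFP EtOH, a log2 fold change of -2.82 ± 0.56 (SE; edgeR adjusted p = 0.0356). It is a call among 467 that became 1 to 3 calls over all genes when any 1 GFP library was left out. None of the 4 complex II, 9 complex III, 11 complex IV and 17 ATP synthase nuclear genes passed by edgeR's test. Unadjusted p was under 0.05 for 1, 1, 1 and 4 of them, DESeq2 passed 1, 1, 1 and 2, and their median log2 fold changes were -0.50, 0.14, -0.14 and -0.10, all in that order of the complexes. Against the background of 25.9% of all genes for the unadjusted p and 13.4% for DESeq2, no list had a larger share except complex II with DESeq2, at 1 of 4. UQCRFS1, the Rieske iron-sulfur protein of complex III, had -1.23 ± 0.32 (SE; edgeR adjusted p = 0.0659), and NDUFA4, a cytochrome c oxidase subunit, had -1.69 ± 0.46 (SE; edgeR adjusted p = 0.0760).

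Genes that make and turn over mitochondrial RNA did not pass by edgeR's test either, in P300 EtOH over GFP EtOH. Of 17 genes for mitochondrial DNA transcription and replication, 7 had positive and 10 negative log2 fold changes, with a median of -0.16. Of these 17, 3 had an unadjusted p under 0.05 and DESeq2 passed 1. TEFM, the mitochondrial transcription elongation factor, had -2.50 ± 0.82 (SE, edgeR adjusted p = 0.104). It was low, at 2.37 and 0 CPM in P300 EtOH and at 10.4, 4.64 and 10.1 CPM in GFP EtOH. The value of 0 was in the shallow P300 EtOH replicate 2. Of 27 genes for mitochondrial RNA processing and decay, 5 were positive and 22 negative, with a median of -0.40; 4 had an unadjusted p under 0.05 and DESeq2 passed 2, both below the share in all genes. Among them PNPT1, the polynucleotide phosphorylase of the mitochondrial RNA degradosome, was at 157 and 118 CPM in P300 EtOH and at 360, 232 and 341 CPM in GFP EtOH. Its log2 fold change was -1.18 ± 0.28 (SE, edgeR adjusted p = 0.0546). Both P300 EtOH libraries lay below all GFP EtOH libraries, as they did for 29% of all genes. In P300 Dex over GFP Dex the same list again had 5 positive and 22 negative members, with a median of -0.32 against 0.09 for all genes; edgeR passed 0, 3 had an unadjusted p under 0.05 (12.6% of all genes did) and DESeq2 passed 1 (3.89% of all genes).

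Of 74 tested mitochondrial ribosomal protein genes, which are nuclear, 17 had positive and 57 negative log2 fold changes in P300 EtOH over GFP EtOH, with a median of -0.44. Of 11 tested regulators of mitochondrial biogenesis, 3 were positive, with a median of -0.28. Of 12 tested genes of the mitochondrial stress response, 2 were positive, with a median of -0.64, and GDF15, a secreted stress cytokine, was at 63.0 and 55.4 CPM in P300 EtOH and at 128, 183 and 105 CPM in GFP EtOH (edgeR adjusted p = 0.0764). No gene of these 3 lists passed edgeR's adjusted threshold in this comparison; of the ribosomal protein, biogenesis and stress genes 10, 0 and 2 had an unadjusted p under 0.05, against 25.9% of all genes, and DESeq2 passed 3, 0 and 2, against 13.4% of all genes.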

How the data were processed

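RNA-seq of 10 libraries was analysed, grouped and numbered by the labels. The values are raw counts per gene, whole numbers in the deposited table per the file headers. Per the submitters' processing notes the authors worked with GRCh37, HTSeq 0.6.1p1, DESeq2 1.10.1, STAR 2.4.2a and cutadapt. Which annotation and strand setting they counted with is not stated in the material at hand. The other 10 columns of values per sample, and the authors' file of thresholds, were not used.

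EP300 was removed, genes were filtered by edgeR's default by group, and edgeR 4.0.16 (R 4.3.3) fitted all 10 libraries with TMM factors, group as the only term and Benjamini-Hochberg adjustment over 19843 genes at 0.05, for 5 comparisons. SE is the log2 fold change divided by the root of the F statistic, and 95% intervals are 1.96 SE to each side. Sums and ratios had two-sided exact permutation tests (SciPy 1.17.1), adjusted over 16. Alternatives used DESeq2 1.42.0, limma 3.58.1 and the settings given in the closing part. Lengths and positions came from GENCODE 29 (GRCh38) by Ensembl identifier, and CPM per kilobase is CPM over gene length. Intervals of shares are 95% Clopper-Pearson and reflect counting error alone, as PCR copies without molecular identifiers are not separate molecules. None of 8 pairs of libraries within a group differed by as little as sampling noise (chi-square).

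Libraries with the same replicate number deviated together from their group means, with r from 0.119 to 0.592 in 13 pairs. In 24 pairs with different numbers r ran from -0.474 to 0.239. Deviations within a group cancel out, which by itself lowers r between different numbers. In pairs with a P300 library the values repeat with the sign flipped. The pairs are thus not independent, and the contrast of 13 with 24 pairs is no test of pairing. The numbers were taken to pair the libraries as an assumption, with r positive in all 13 pairs of the same number. This pairing entered only the differences within numbers and the alternatives with a replicate block. The main edgeR fit and the exact permutation tests did not use the numbers. The members and lists were chosen with earlier results of these data known. Every member is named, and of each list up to 4 genes of at least 1 CPM with the smallest p qualified, from which those given were chosen.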

Additional observations from a re-analysis of the deposited data

Results flagged for a closer look

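MT-CO2 is the cytochrome c oxidase subunit that receives electrons from cytochrome c. On TMM-scaled values its differences within replicate numbers had opposite signs for the construct without and with hormone. Within replicate numbers 1 and 2 the log2 differences were 0.06 and 0.14 in P300 Dex over GFP Dex, and -0.06 and -0.10 in P300 EtOH over GFP EtOH. The mean difference between the settings was 0.18 on the log2 scale, with 2 of 2 pairs on each side. By edgeR's test of the interaction it was 0.19 ± 0.34 (SE, adjusted p = 0.961), so the difference did not exceed the spread between libraries. The sign without hormone also depended on the processing. In P300 EtOH over GFP EtOH the log2 fold change of MT-CO2 ran from -0.28 to 0.23 and stayed negative in 14 of 24 alternatives. In P300 Dex over GFP Dex it was positive in 24 of 24, from 0.03 to 0.24.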

How the results depend on the processing

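Under 24 alternatives (22 for the interaction), 11 of the 15 members kept the sign of their log2 fold change in P300 EtOH over GFP EtOH, 10 in each of P300 Dex over P300 EtOH and P300 Dex over GFP Dex, 2 in GFP Dex over GFP EtOH and 6 in the interaction. Members passed in P300 EtOH over GFP EtOH alone: 1, MT-ATP6, with RLE factors, library sizes without TMM factors, EP300 kept, at least 5 CPM in 2 libraries, limma-voom and the replicate block within the libraries compared, and 4 with DESeq2; the first 5 of these settings called 541, 547, 553, 405 and 380 of all genes. Leaving out a replicate gave 0 to 1. The replicate block in the fit of all 10 libraries changed no member's call and left 332 genes called in that comparison.

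Counts over all genes moved more. In the counts that follow, the block is the replicate block within the libraries compared. The replicate block in the fit of all 10 libraries called 0 genes in GFP Dex over GFP EtOH and 0 in P300 Dex over P300 EtOH. It called 1 gene in P300 Dex over GFP Dex. In P300 EtOH over GFP EtOH they were 2500 with DESeq2, 32 with the libraries compared alone, 288 with the block within them, 0 with GFP limited to numbers 1 and 2, 0 with both GFP number 2 libraries left out (chosen after seeing the data), and 1 to 4175 with a replicate left out. In P300 Dex over GFP Dex they were 712 with DESeq2, 2 with EP300 kept, 10 with no filter, 210 with the block, 0 with limma-voom, with the libraries compared alone and with either limit on GFP, and 0 to 479 with a replicate left out. In P300 Dex over P300 EtOH they were 529 with DESeq2, 7 with the block and 0 to 2433 with a replicate left out. In GFP Dex over GFP EtOH they were 5 with DESeq2, 7 with the libraries compared alone and 277 with the block. The interaction had 128 with DESeq2 and 0 to 1411 with a replicate left out.

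The members' median in P300 Dex over P300 EtOH was -0.45 with RLE factors and with DESeq2, and -0.50 without TMM factors. It was -0.43 with the libraries compared alone, -0.44 with the block within them and -0.33 with the block in all 10 libraries. With a replicate left out it was -0.47 to -0.11, lowest without P300 Dex replicate 2 and highest without P300 Dex replicate 1. In P300 Dex over GFP Dex it was 0.029 to 0.37 with a replicate left out, lowest without P300 Dex replicate 2. RLE factors moved the median of all genes in P300 EtOH over GFP EtOH to -0.02, and the members' median to 0.65. With EP300 kept in the total, differences in share were 0.546 percentage points in P300 EtOH over GFP EtOH, -0.807 in P300 Dex over P300 EtOH and -0.123 in P300 Dex over GFP Dex, and for the protein genes 0.359, -0.672 and -0.187. Against MT-CYB alone, the MT-ND6 log2 ratio differed by 0.40 in P300 EtOH over GFP EtOH and by -0.36 in P300 Dex over P300 EtOH. The cause of these shifts was not tested. Groups of 2 and 3 libraries, 1 of them shallow, limit what could be called, and no exact permutation test here could reach 0.05.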

Other observations

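The nuclear genome holds copies of mitochondrial sequence, and 52 genes of the table are named after such copies. Together their counts were 1.25% to 2.05% of those of the members. The most abundant, MTATP6P1, had counts equal to 40.9% and 42.9% of those of MT-ATP6 in P300 Dex, 30.2% and 48.2% in P300 EtOH, 44.0%, 34.7% and 42.5% in GFP Dex, and 39.4%, 45.4% and 42.1% in GFP EtOH. Its log2 fold change in P300 EtOH over GFP EtOH was 0.82 ± 0.23 (SE; edgeR adjusted p = 0.0787), beside 0.98 for MT-ATP6, and reads of near-identical copies cannot be told apart in these counts. With its counts added to those of MT-ATP6, the log2 fold change of the sum was 0.93 (edgeR adjusted p = 0.0512), an alternative chosen after seeing the data. The next most abundant copies, MTND2P28 and MTND5P11, had log2 fold changes of 0.58 ± 0.34 and -1.10 ± 0.46 (SE) in the same comparison, with edgeR adjusted p-values of 0.304 and 0.168.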
